A study of Mus musculus with 2 samples.

Results

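The genes described here are 10 genes of the proximal airway: Sox2, Sox21, Klf5, Trp63, Aldh1a7, Upk3a, Cyp2f2, Scgb1a1, Scgb3a2 and Foxj1. They were chosen by name, as the probe sets annotated with exactly 1 gene symbol that is on this list. The list was drawn up with earlier results of these data known. All 10 were found among the 19938 genes of the table. Each was read by 1 probe set, so no gene had a second reading. RNA came from E13.5 lungs of mouse embryos labelled as knockout for Etv4 and Etv5 (also labelled CKO and DKO) and from wild type lungs of the same day. Both groups were pools of 3 samples in equal amounts, each read on 1 Affymetrix array, so nothing can be said of the spread between embryos and no test was run. Which Cre line was used, if any, and which exons were removed are not given in the sources used here, nor are strain and sex. Values were read as log2 from their range, since the scale is not stated, and every difference is knockout minus wild type on that scale.

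The lung epithelium forms a branching tube whose stalks become the conducting airways and whose tips hold dividing progenitors. Sox2 marks the proximal stalk and Sox9 the distal tip. Signalling by Fgf10 from the mesenchyme acts through Fgfr2 in the tip, where it induces Etv4 and Etv5, a pair of ETS family transcription factors. The proximal tube later gives rise to secretory (club), ciliated, basal and neuroendocrine cells, and many of their products appear only in later gestation.

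Proximal airway genes were higher or equal in the knockout pool as deposited, and none was lower. Of the 10 genes 7 were higher, 0 lower and 3 exactly equal on both arrays, with a median difference of 0.11; the 3 equal genes, Upk3a, Scgb1a1 and Foxj1, took small values of either sign under other scalings, and the 7 others kept theirs. Over all 19938 genes 33.4% were higher, 33.2% lower and 33.5% equal. Klf5, Aldh1a7 and Scgb3a2 were at least 1.2-fold higher (a difference of at least 0.26), which held for 2.21% of all genes, and 0 of the 10 were 1.2-fold lower, against 1.33% of all genes at that size. Scgb3a2 fell short of 1.2-fold under loess scaling and with a floor at the 25th percentile, which left 2 genes. None of the 10 reached 1.5-fold. In a whole-lung extract, more cells of a type and more RNA per cell cannot be told apart. The median difference over all genes was 0.00.

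The share of genes that were higher depended on the level. The median of all 35557 probe sets was 7.58 on the knockout array and 7.60 on the wild type array. Sox2, Sox21, Klf5, Aldh1a7 and Cyp2f2 lay above it on both arrays, and Trp63, Upk3a, Scgb1a1, Scgb3a2 and Foxj1 lay below it on both. All 5 genes above the median were higher in the knockout pool, where 25.7% of the 11045 genes at or above the median were higher and 47.0% lower. Once the arrays were shifted to equal medians, which moved every gene by 0.017, that share became 60.7% higher and 39.3% lower, so a count of signs says little and sizes are given below. Of the 5 genes under the median 2 were higher, where 42.9% of the 8893 genes under it were higher and 16.0% lower. Exactly equal values were found for 41.1% of genes below the median, and 3 of the 5 members there were equal.

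**Figure D1:**
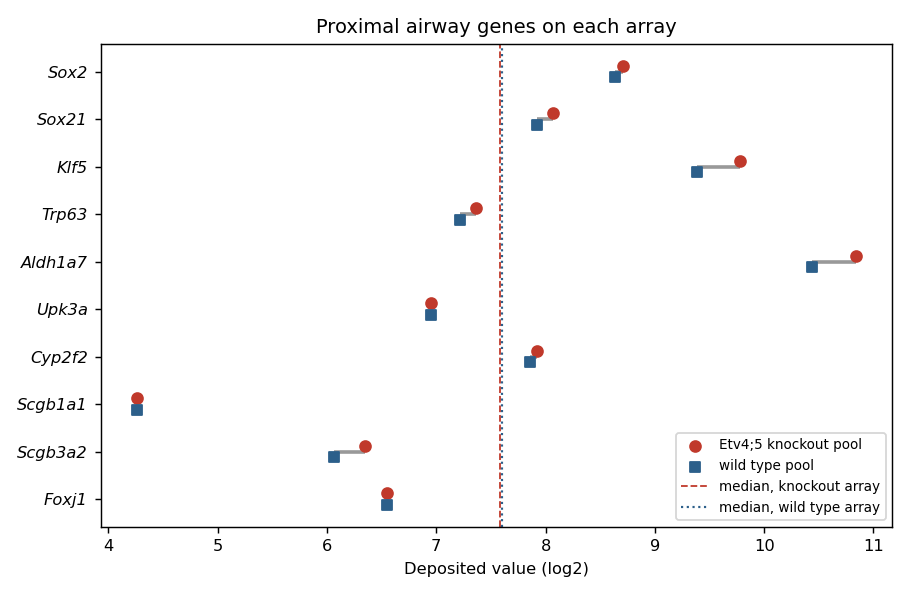
Deposited log2 value (x axis) of each of the 10 proximal airway genes (rows) in the Etv4;5 knockout pool (red circles) and the wild type pool (blue squares), 1 array each, with both array medians as vertical lines. Klf5 and Aldh1a7 show the widest gaps among the 5 genes right of the medians, and Upk3a, Scgb1a1 and Foxj1 have the same value on both arrays.

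The targeted genes and the composition of the pools frame these values. Etv4 was at 6.96 in the knockout pool and 7.59 in the wild type pool, below the median on both arrays. The brighter Etv5 probe set was at 11.28 in the knockout pool and 11.51 in the wild type pool, and whether either probe set lies in a deleted part is not given. Xist, expressed from the inactive X chromosome of female cells, was at 5.74 in the knockout pool and 12.34 in the wild type pool. The Y-linked genes Uty (9.64 in knockout, 8.99 in wild type), Eif2s3y (10.44 in knockout, 9.90 in wild type) and Kdm5d (9.58 in knockout, 9.05 in wild type) lay above the median on both arrays. Sry, at 7.88 in knockout and 7.71 in wild type, had the largest positive difference of the Sox genes (0.17). The pools therefore differed in sex-linked expression. With 1 array per group, its part in the results below cannot be told apart from that of genotype. The lung identity factor Nkx2-1 (10.70 in knockout, 10.58 in wild type) and the epithelial adhesion gene Epcam (10.47 in knockout, 10.38 in wild type) lay well above the median on both arrays. Of the 7 genes set as defining markers of the proximal airway, Sox2 and Cyp2f2 lay above the median, while Scgb3a2, Scgb1a1, Foxj1, Trp63 and the basal keratin gene Krt5 (6.51 on both arrays) lay below it.

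Among the transcription factors, all 4 were higher in the knockout pool, with a median difference of 0.14. Sox2, the SoxB factor that specifies the proximal domain and is needed for airway cell differentiation, was at 8.71 in the knockout pool and 8.64 in the wild type pool. That difference of 0.07 (1.05-fold) ranked 1220th of 11045 genes, and 13.1% of the 1652 genes within 0.25 of its mean level had a difference as high or higher. Sox21, a related SoxB factor expressed in the Sox2 domain, was at 8.07 in the knockout pool and 7.92 in the wild type pool, a difference of 0.15 (1.11-fold) that ranked 502nd. Of the 1426 genes of like level 10.1% had a difference as high or higher. Neither SoxB gene lay outside the central 95% of genes of like level, which ran from -0.24 to 0.20 for Sox2 and from -0.24 to 0.27 for Sox21.

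The 250 bases before the start of these SoxB genes are shown because both hold the letters CCGGAA, an ETS-type core. They were read from a RefSeq table of the build GRCm38.p6, which held such a window for 5 of the 10 genes (Sox2, Sox21, Aldh1a7, Upk3a and Cyp2f2). Each is printed from 5′ to 3′ on the strand of the gene, with CCGGAA in capitals. Sox2 is at chr3:34649745-34649994 on the plus strand and Sox21 at chr14:118237031-118237280 on the minus strand.
Sox2: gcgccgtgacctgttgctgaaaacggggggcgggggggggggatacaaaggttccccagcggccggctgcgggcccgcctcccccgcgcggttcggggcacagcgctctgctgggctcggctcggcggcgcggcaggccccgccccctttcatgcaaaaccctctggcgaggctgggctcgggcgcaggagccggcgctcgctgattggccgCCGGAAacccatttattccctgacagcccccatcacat
Sox21: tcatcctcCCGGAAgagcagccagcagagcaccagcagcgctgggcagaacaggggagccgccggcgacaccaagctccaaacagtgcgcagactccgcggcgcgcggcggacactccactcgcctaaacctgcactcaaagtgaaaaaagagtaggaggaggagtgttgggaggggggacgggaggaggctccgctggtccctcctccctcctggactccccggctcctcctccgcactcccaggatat
CCGGAA was searched on both strands and lay in 12.0% of all 32851 windows, and in 2 of the 5 members' windows. Its first base lay 38 bases before the start in Sox2 and 242 bases before it in Sox21. Both windows were rich in G and C, at 72.0% in Sox2 and 65.2% in Sox21, against a median of 52.4% over all windows. Sox2 held 27 and Sox21 held 17 CG pairs, against a median of 6. Such a match is a string of letters, and no binding was measured.

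Klf5, a zinc finger factor of the Krüppel-like family that is expressed in lung epithelium and needed for maturation of the lung before birth, was the factor with the largest difference. It was at 9.78 in the knockout pool and 9.38 in the wild type pool, a difference of 0.40 (1.32-fold) that ranked 53rd of the 11045 genes. Of the 1608 genes of like level 0.311% had a difference as high or higher, and their central 95% ran from -0.22 to 0.15. Klf5 therefore lay outside the range in which most genes of its level fell on these arrays, though with 1 array per group this range is not a measure of variation between embryos. No start window was held for Klf5, Trp63, Scgb1a1, Scgb3a2 or Foxj1.

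Trp63, which encodes p63, the factor that marks and maintains basal cells of the trachea and large airways, was at 7.36 in the knockout pool and 7.22 in the wild type pool. The difference was 0.14 (10.2% higher), both values lay below the array medians, and 14.2% of 1530 genes of like level had a difference as high or higher. Trp63 lies on chromosome 16, as Etv5 does, with 21 protein-coding genes between them in RefSeq. Of the genes between them, 7 were at or above the median, and their differences ran from -0.12 to 0.00. Sox21 and Klf5 also share a chromosome, 14, with 28 protein-coding genes between them; the differences of the 20 genes of that stretch at or above the median ran from -0.49 (Ednrb) to 0.12 (Lmo7).

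Set among their families, Sox2 and Sox21 were 2 of 7 higher members of the 15 Sox genes at or above the median, of which 5 were lower and 3 equal. Sox9, the factor of the distal tip, had the largest difference of the 20 Sox genes, at 10.53 in the knockout pool and 10.84 in the wild type pool (-0.32). Sox11 differed by -0.18 and Sox17 by -0.15. Of the other SoxB genes, Sox3 differed by 0.11 and Sox1 by 0.10, and Sox14 was at 7.02 on both arrays, below the medians. Klf5 had the largest difference of the 17 Klf genes. Klf9 was the only other one past 1.2-fold, at 8.18 in the knockout pool and 7.91 in the wild type pool (0.26). Klf4 and Klf6 were equal on both arrays, and the median of the 14 Klf genes at or above the array median was 0.02. Trp73, the p53 family member of ciliated cells, was at 6.73 on both arrays.

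**Figure D2:**
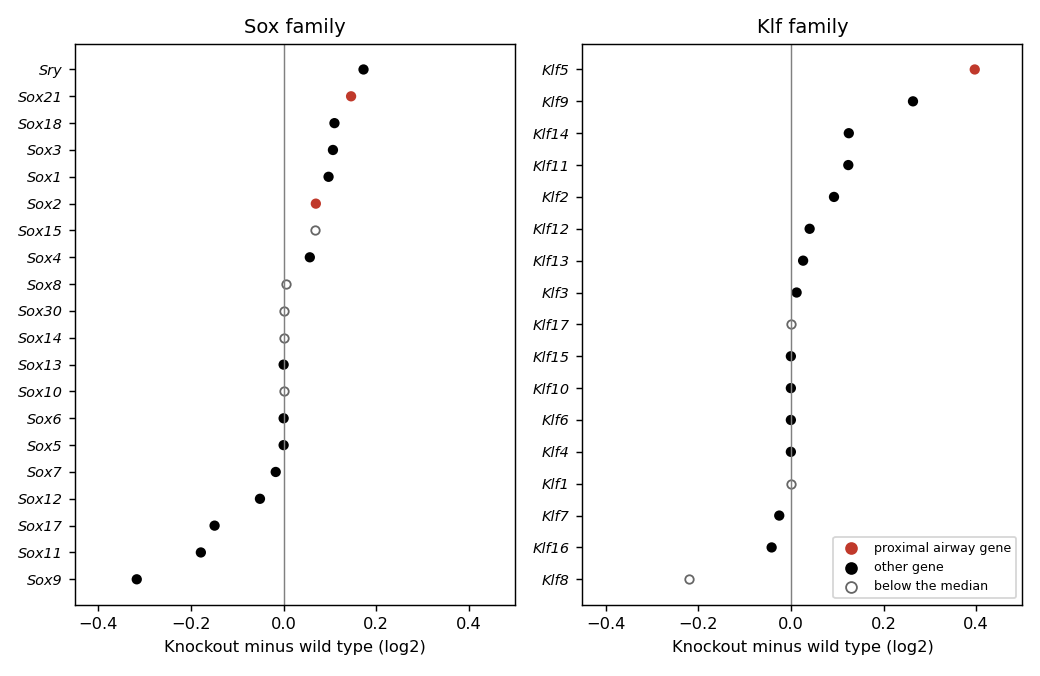
Knockout minus wild type (log2, x axis) of every matched Sox gene (left) and Klf gene (right), 1 array per group; red points are proximal airway genes, black points other genes and open points genes below the median on both arrays. Klf5 (0.40) stands at the top of its family, Sox21 (0.15) and Sox2 (0.07) lie among several higher Sox genes, and Sox9 (-0.32) is at the bottom.

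The secretory genes with readable levels were Aldh1a7 and Cyp2f2. Aldh1a7, an aldehyde dehydrogenase closely related to the retinoic acid synthesis enzymes, had the largest difference of the 10 genes. It was at 10.84 in the knockout pool and 10.44 in the wild type pool, a difference of 0.41 (1.33-fold) that ranked 46th of 11045. Of the 984 genes of like level 0.203% had a difference as high or higher, and their central 95% ran from -0.20 to 0.09. Its paralog Aldh1a1 was at 9.16 in the knockout pool and 8.90 in the wild type pool, a difference of 0.27. Aldh1a2, the retinoic acid synthesis gene of mesenchyme and mesothelium, was equal on both arrays at 10.14, and Aldh1a3 differed by 0.09 below the median. The higher values were thus in the neighbouring pair Aldh1a7 and Aldh1a1, which lie on chromosome 19 with 0 protein-coding genes between them.

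The start windows of this pair are shown because they are near copies of each other. The last 110 bases before the start were identical at 104 positions (94.5%) without a gap, and capitals mark the 6 that differ. Aldh1a7 is at chr19:20727557-20727666 on the minus strand and Aldh1a1 at chr19:20601858-20601967 on the plus strand, in GRCm38.p6. RefSeq gives a second start for Aldh1a1, whose window aligned with that of Aldh1a7 over 23 columns only.
Aldh1a7: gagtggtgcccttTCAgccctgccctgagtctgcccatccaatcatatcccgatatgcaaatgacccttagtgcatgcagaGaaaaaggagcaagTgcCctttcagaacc
Aldh1a1: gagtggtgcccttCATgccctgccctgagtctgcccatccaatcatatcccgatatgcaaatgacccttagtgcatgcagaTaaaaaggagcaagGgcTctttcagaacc
Probe sequences were not used here. How far the probe sets of Aldh1a7 and Aldh1a1 read each other's transcript was not tested, so their differences should not be counted as 2 independent readings.

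Cyp2f2, a cytochrome P450 of club cells, was at 7.92 in the knockout pool and 7.86 in the wild type pool, both just above the medians. The difference of 0.06 (1.04-fold) ranked 1322nd, and 25.7% of 1402 genes of like level had a difference as high or higher. Its start window at chr7:27119705-27119954 on the plus strand is shown as the contrast to the SoxB genes: it had 0 CG pairs and 51.6% G and C, and was the only window of the 5 with AGGAAG, another ETS-type string, in capitals. That string, searched on both strands, was in 29.5% of all windows, and lay 204 bases before the start.
Cyp2f2: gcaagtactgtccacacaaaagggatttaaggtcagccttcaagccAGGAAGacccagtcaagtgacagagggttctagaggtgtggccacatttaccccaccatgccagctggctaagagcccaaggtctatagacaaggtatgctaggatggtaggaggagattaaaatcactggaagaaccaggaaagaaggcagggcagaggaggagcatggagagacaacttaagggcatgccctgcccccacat
The general promoter string CCAAT, on either strand, was in 3 of the 5 windows (Sox2, Aldh1a7 and Upk3a) and in 33.8% of all windows. GGGCGG, the GC box, was in 2 of 5 (Sox2 and Upk3a) and in 32.7% of all.

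Scgb3a2, an early secretoglobin of the bronchial epithelium that depends on Nkx2-1, was at 6.34 in the knockout pool and 6.06 in the wild type pool, a difference of 0.28 (1.21-fold). Both values lay more than 1 log2 unit below the array medians, and 2.77% of 1587 genes of like level had a difference as high or higher. Its difference lay just inside the central 95% of those genes, which ran from -0.19 to 0.28. It was 0.26 under loess scaling, just short of 1.2-fold, and 0.22 with the floor. Among genes below the median 3.22% passed 1.2-fold upward and 1.09% passed it downward.

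Scgb1a1, Upk3a and Foxj1 gave no difference to describe. Scgb1a1, the club cell secretory protein that comes to dominate the mature airway, was at 4.26 on both arrays, far below the medians. Upk3a, a uroplakin that marks a subset of secretory cells near neuroendocrine bodies, was at 6.96 on both. Foxj1, the factor that drives motile cilia, was at 6.55 on both. Equal values were also found for 57.3% of 499 genes at the level of Scgb1a1, 33.3% of 1706 at that of Upk3a and 36.4% of 1744 at that of Foxj1. At these levels the arrays do not show whether these genes were expressed, and equal values do not show that they were unaltered.

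**Figure D3:**
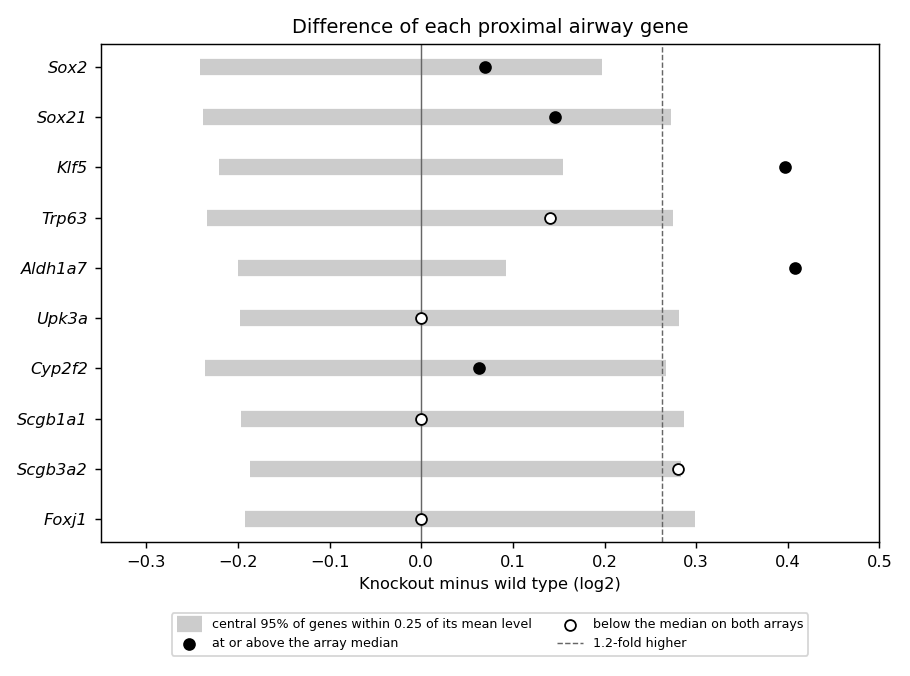
Knockout minus wild type (log2, x axis) of each proximal airway gene (points; filled at or above the array median, open below it), with grey bars for the central 95% of genes within 0.25 of its mean level and a dashed line at 1.2-fold higher. Klf5 (0.40) and Aldh1a7 (0.41) lie right of their bars, and the other 8 genes lie within theirs.

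Other genes of the airway cell types were described from lists chosen by function, with earlier results of these data known. Shares set beside these lists are therefore a description and no test. Of 20 matched secretory and club cell genes beyond the 10, 5 were at or above the median, and all 5 were higher. Nupr1 (7.75 in the knockout pool, 7.52 in the wild type pool) reached the median only on the knockout array, so that filter fixed its direction. Of all genes at or above the median 25.7% were higher, or 60.7% with equal medians. Beside 1.39% of genes at or above the median, 3 of the 5 were at least 1.2-fold higher. They were Aldh1a1, the tight junction gene Cldn10, a club cell marker, at 9.65 in the knockout pool and 9.33 in the wild type pool (0.32), and Wfdc2, a secreted airway protein, at 9.98 in the knockout pool and 9.66 in the wild type pool (0.31). The median of the 20 was 0.02. Among 10 goblet cell genes 2 were at or above the median: Spdef, the goblet cell factor, differed by 0.22 and Creb3l1 by -0.07.

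Ciliated, basal and neuroendocrine genes were also described. Of all genes at or above the median 25.7% were higher and 47.0% lower, or 60.7% and 39.3% with equal medians. The counts of signs in these lists therefore say little. Of 23 ciliated cell genes 4 were at or above the median, with 3 higher, 1 equal and 0 past 1.2-fold. The largest were Mcidas, a regulator of multiciliated cells, at 0.16 and the ciliary factor Rfx2 at 0.11. Of 16 basal cell genes 9 were at or above the median, with 2 higher and 6 lower, a median of -0.03, and Pdpn, also a gene of alveolar type 1 cells and mesothelium, at -0.28. Several of these 9 are also expressed in mesenchyme, such as Snai2. Perp, 1 of the 2 higher genes, was at 7.84 in the knockout pool and 7.59 in the wild type pool. It reached the median only on the knockout array. Of 9 neuroendocrine genes 2 were at or above the median, Insm1 at 0.10 and Uchl1 at -0.05. Of 15 regulators of airway epithelium at or above the median 9 were higher and 3 lower, with 0 past 1.2-fold, a median of 0.02, and Elf3 (0.26) and Nkx2-1 (0.12) as the largest among the higher ones.

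Genes shared by all lung epithelium had a similar median difference. Of 27 such genes at or above the median 21 were higher, 3 lower and 3 equal. Elf3, among the higher ones, reached the median only on the knockout array. Of all genes at or above the median 25.7% were higher and 47.0% lower, or 60.7% and 39.3% with equal medians. The median difference of the 27 was 0.12, beside 0.15 for the 5 proximal airway genes at or above the array median. The keratin genes Krt18, Krt19 and Krt8 were higher by 0.47, 0.45 and 0.33 and the epithelial trafficking gene Rab25 by 0.30. These 4 were the only ones of the 27 past 1.2-fold, where 1.39% of genes at or above the median were at least 1.2-fold higher. Only Krt18 and Krt19 had larger differences than Klf5 and Aldh1a7, and the differences of Sox2 and Cyp2f2 were below the epithelial median. The part of epithelial content in the proximal airway values was not tested.

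Distal tip genes were mixed. Of 17 at or above the median 12 had lower and 4 had higher values in the knockout pool (median -0.12). The 12 include Etv5 (-0.23), itself a targeted gene. Of all genes at or above the median 47.0% were lower and 25.7% higher, or 39.3% and 60.7% with equal medians. In the list 5 passed 1.2-fold downward and 3 upward, where 1.53% of genes at or above the median passed it downward and 1.39% upward. Those 5 were the surfactant gene Sftpc (-1.12), Shh (-0.41), Sox9 (-0.32), Id2 (-0.31) and Muc1 (-0.27). The 3 upward were the surfactant gene Sftpb (1.91), the lamellar body gene Lamp3 (1.42) and the protease gene Ctsh (0.43). Lamp3 (8.13 in the knockout pool, 6.71 in the wild type pool) reached the median only on the knockout array, so that filter fixed its direction. Beside the distal factor Sox9, the proximal factor Sox2 differed by 0.07.

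**Figure D4:**
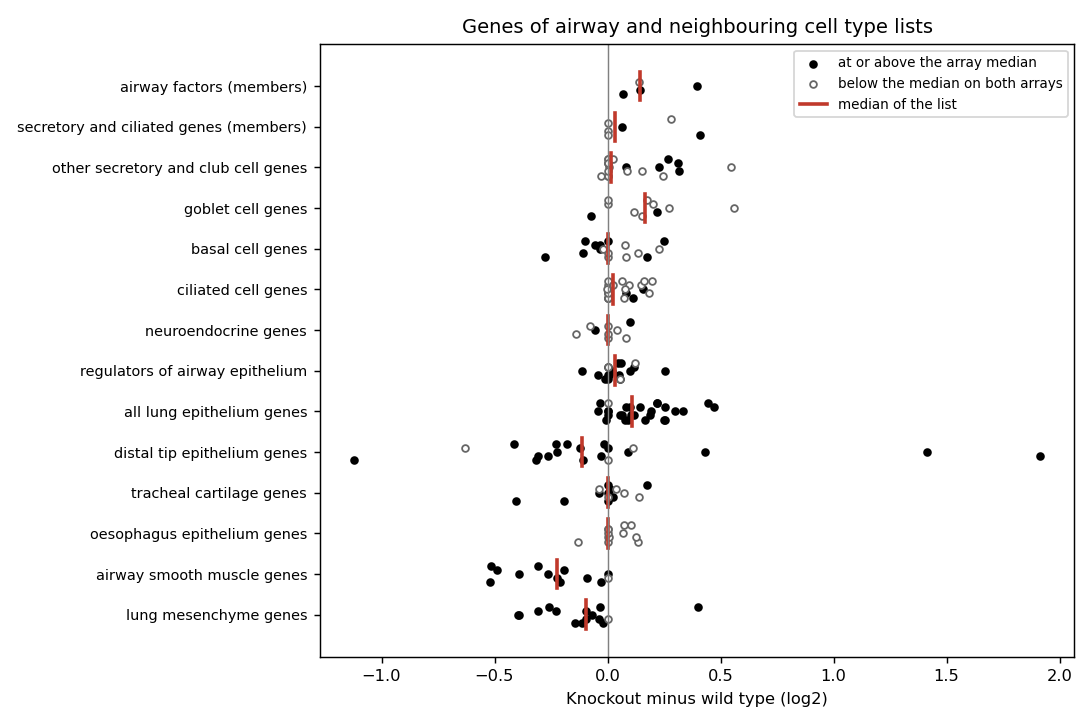
Knockout minus wild type (log2, x axis) of every matched gene of 14 lists (rows), 1 array per group; filled points lie at or above the array median, open points below it on both arrays, and red bars are list medians. The proximal airway genes and all lung epithelium genes lie mostly right of 0, and airway smooth muscle and lung mesenchyme genes mostly left of it.

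Tissues that could be carried along with the lung gave these values. Of 9 tracheal cartilage genes at or above the median 3 were higher, 3 lower and 3 equal, with a median of 0.00 and Cnmd at -0.41. Cnmd (7.37 in the knockout pool, 7.78 in the wild type pool) reached the median only on the wild type array. Of 12 genes of oesophagus epithelium, which also expresses Sox2 and Trp63, 0 were at or above the median, and their mean level was 6.31 in the knockout pool and 6.28 in the wild type pool. Of 10 mesothelial genes at or above it 6 were higher and 1 lower, with Krt19 past 1.2-fold and a median of 0.04. Among 12 airway smooth muscle genes at or above the median, 11 had lower values in the knockout pool and 0 higher (median -0.24), with Pcp4 (-0.52), Hhip (-0.52), Synpo2 (-0.49) and Myocd (-0.39) as the largest. Of 14 lung mesenchyme genes at or above it 13 were lower and 1, Fgf10 (0.40), was higher, with Foxf1 at -0.40, Twist2 at -0.39 and Wnt2 at -0.31 and a median of -0.11. Of 10 endothelial genes 7 were lower and 1 higher (Pecam1 -0.08, Tek -0.08), and 8 of 8 leukocyte and erythroid genes were lower (Slc4a1 -0.26, Hba-x -0.25). Of all genes at or above the median 47.0% were lower and 25.7% higher, shares that became 39.3% and 60.7% with equal medians. The endothelial median of -0.014 was smaller in size than that shift of 0.017, so its count of signs depends on the scaling. The part of these tissues in the proximal airway values was not tested.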

How the data were processed

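Biotin-labelled RNA from column preparations was read on Affymetrix arrays, per the labels' protocols; pooling is per the series' design text. The authors deposited 1 value for each probe set on each array, taken here as log2. Log base, summary method and normalization are not given in the sources used here. Array number limits the precision.

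Gene names came from the platform annotation, which gave 1 symbol to 21789 probe sets. Each gene took its probe set with the highest mean (19938 genes), and for 11045 the brighter value reached its array's median (equal values were set against the wild type median). A gene could thus pass through 1 array only, the one on which it was higher. Values were used as deposited, with no floor. With 1 array per group there is no p-value and no SD; genes were counted at 1.2-fold and set beside all genes, and beside genes within 0.25 of the same mean level. For 777 genes with 2 probe sets the differences of both probe sets lay 0.04 apart in the median and 0.20 at the 90th percentile.

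The members and the gene lists were chosen with earlier results of these data known. Named genes are the 10 members, Etv4, Etv5, Xist, the Y-linked genes, any gene of the families and genes of each list. From a list those past 1.2-fold (at most 4) were named, or else the 2 with the largest size at or above the median. The defining markers of the proximal airway were all named, but only some of those of other tissues. Other names were added after values were seen (Ednrb, Lmo7, Snai2, Nupr1, Perp, Id2, Shh, Muc1 and those in the closing section). The counting step was checked by adding fixed differences, without noise, to the wild type values. That checks its arithmetic only and not the reliability of any gene's difference. Alternatives were equal medians, quantile, loess (span 0.3), the probe set mean, a floor at the 25th percentile, filters at the median and the 75th percentile, and thresholds of 1.1-fold, 1.5-fold and 2-fold. Gene order came from RefSeq (GRCm38.p6). Python 3.11.15, numpy 2.4.6, pandas 2.3.3, statsmodels 0.14.6, biopython 1.88 and matplotlib 3.10.9 were used.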

Additional observations from a re-analysis of the deposited data

How the results depend on the processing

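No gene past 1.2-fold changed direction under any alternative run. Over equal medians, quantile and loess scaling, the floor and the mean of probe sets, Klf5 lay between 0.40 and 0.43, Aldh1a7 between 0.41 and 0.43, Sox21 between 0.14 and 0.16 and Sox2 between 0.07 and 0.09. The mean of probe sets could move no member, as each had 1 probe set. The floor could not move members above the array median, which include Klf5, Aldh1a7, Sox21 and Sox2. Upk3a, Foxj1 and Scgb1a1 took small values of either sign (lowest -0.02, highest 0.02), so the 7 higher and 0 lower genes were 10 and 0 with equal medians, 8 and 2 with quantile normalization, 7 and 3 with loess and 8 and 0 with the floor. Scgb3a2 was 0.22 with the floor at the 25th percentile and 0.26 with loess, under 1.2-fold in both, so that 2 genes were counted in each. The count of 3 genes at least 1.2-fold higher was 5 at 1.1-fold, 0 at 1.5-fold and 0 at 2-fold, as the threshold sets. The median of the members was 0.40 above the 75th percentile of the arrays, a filter that leaves 2 genes, Klf5 and Aldh1a7. A move counted as such beyond 0.04, the median gap between probe sets of a gene. No array could be left out. No paired analysis was possible because each group holds 1 array. Dim signal limits Trp63, Scgb3a2, Upk3a, Foxj1 and Scgb1a1.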

Other observations

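Some other airway genes with dim probe sets differed by at least 1.2-fold, and they are named here after their values were seen. Foxa3, a forkhead factor of goblet cells, was at 7.29 in the knockout pool and 6.73 in the wild type pool (0.56). Bpifb1, a secreted protein of airway surface fluid, was at 6.55 in the knockout pool and 6.00 in the wild type pool (0.55). Tff1, a trefoil peptide of mucous cells, was at 7.52 in the knockout pool and 7.25 in the wild type pool (0.27). All 3 lay below the median on both arrays, where 3.22% of genes were at least 1.2-fold higher. They were the only dim genes past 1.2-fold in lists of 20 secretory, 10 goblet, 16 basal, 23 ciliated and 9 neuroendocrine genes. As they were picked by value from these lists, no share is drawn from them. Of the 10 goblet cell genes 7 were higher, 1 lower and 2 equal, with a median of 0.16, but only 2 of the 10 were at or above the array median. Among all genes below it 42.9% were higher and 16.0% lower as deposited, and 85.7% were higher with equal medians. The goblet count of signs therefore says little. The defining basal keratin gene Krt5 was equal on both arrays and Krt15 differed by 0.23 at a dim level.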
